A study of Mus musculus with 9 samples.

Results

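The erythroid miRNAs mmu-miR-451a, mmu-miR-144-3p, mmu-miR-144-5p, mmu-miR-486a-5p and mmu-miR-486b-5p were followed in small RNA libraries of the mouse hippocampus. They were chosen by name, as the mature miRNAs of the mir-144 and mir-451a cluster and the 5′ arms of the mir-486 hairpins. Earlier results of these data were known when the choice was made. The members made up 5 of the 1448 rows of the deposited table. All 5 were among the 628 rows with at least 10 reads in at least 3 libraries, on which the tests were run. The 5 rows hold 4 distinct sequences, since miR-486a-5p and miR-486b-5p are the same 22 bases.

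The libraries came from C57BL/6J mice, described in the study's methods as adult males, with 3 libraries in each of 3 groups. The saline group was given 0.9% saline. The LPS group was injected once, intraperitoneally, with lipopolysaccharide (LPS) at 1 mg/kg, a bacterial cell wall component that provokes inflammation, and its labels also name 0.12% saline. The LPS + GAS group received the same LPS dose and 100 mg/kg gastrodin (GAS), a phenolic glucoside of the orchid Gastrodia elata, labelled as given 1 h after LPS. The methods describe the order of the 2 agents in more than one way, and the timing is taken here from the labels. Perfusion of the sequenced brains is not described in the sources used here. Nothing states that the libraries came from separate animals, so the p-values measure only the spread between these libraries.

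Red cell precursors transcribe mir-144 and mir-451a together as 1 primary transcript under the erythroid factor GATA1. The mir-451a hairpin is too short for Dicer and is cut by Argonaute 2, which leaves a single mature miRNA of high abundance that persists in circulating red cells. miR-486 is made from an intron of Ank1, the gene of the red cell membrane protein ankyrin-1, and in muscle as well as in the erythroid lineage. In brain tissue, miR-451a is widely used as a sign of blood left in the vessels.

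The mature sequences from the deposited table are given 5′ to 3′ with the seed, bases 2 to 8, in capitals, since they show which members can and cannot be told apart.
miR-451a: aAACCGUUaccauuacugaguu
miR-144-3p: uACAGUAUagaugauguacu
miR-144-5p: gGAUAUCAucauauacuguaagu
miR-486a-5p and miR-486b-5p: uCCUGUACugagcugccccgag
miR-486a-3p: cGGGGCAGcucaguacaggau
miR-486b-3p: cGGGGCAGcucaguacagga
The seeds of miR-451a, miR-144-3p and miR-144-5p were shared by 0 other rows of the table. The seed of miR-486a-5p was shared only with its copy miR-486b-5p. The seed of the 3′ arms of miR-486 was also found in miR-326-5p and miR-6954-5p. The base composition set the members apart, with 63.6% G and C in miR-486a-5p against 36.4% in miR-451a, 30.0% in miR-144-3p and 30.4% in miR-144-5p.

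On GRCm38, mir-144 (Mir144) lies on the plus strand at chr11:78073005-78073070 and mir-451a (Mir451a) follows 99 bases later at chr11:78073170-78073241. Both lie between protein-coding genes in GENCODE M21, with Flot2 ending 12570 bases before mir-144 and Eral1, on the minus strand, 134 bases after mir-451a. The annotation also places Mir451b on the opposite strand of mir-451a, which is not analysed here. The mature miR-451a lies at chr11:78073186-78073207, miR-144-3p at chr11:78073047-78073066 and miR-144-5p at chr11:78073010-78073032. The mir-486a hairpin (Mir486) lies at chr8:23142555-23142682 on the plus strand and mir-486b (Mir3107) at chr8:23142573-23142662 on the minus strand. Both are intronic in 15 transcripts of Ank1, the shortest such intron being chr8:23141721-23148280, and overlap 0 Ank1 exons. mir-486b is the reverse complement of a stretch of mir-486a. Reads of miR-486-5p therefore cannot be assigned to a strand of this locus.

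The precursors follow with the mature miRNAs in capitals, because the position of miR-451a in its hairpin differs from that of the other members. The mir-144 and mir-451a precursors match RefSeq for GRCm38.p6, and mir-486a was read from the GENCODE M21 transcripts.
mir-451a: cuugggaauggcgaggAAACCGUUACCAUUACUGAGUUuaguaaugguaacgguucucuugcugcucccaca
mir-144: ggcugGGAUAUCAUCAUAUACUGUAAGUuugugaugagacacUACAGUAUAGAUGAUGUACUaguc
mir-486a: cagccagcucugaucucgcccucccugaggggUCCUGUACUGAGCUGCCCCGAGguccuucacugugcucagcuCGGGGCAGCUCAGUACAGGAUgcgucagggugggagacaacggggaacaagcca
In the minimum free energy fold by RNAfold, miR-451a occupied positions 17 to 38 of its 72-base precursor. Of its 22 bases, 17 were paired and 4 formed the whole terminal loop. The mature arms of mir-144 and mir-486a lay wholly outside the terminal loop, miR-144-5p with 20 of its 23 bases paired, miR-144-3p with 19 of 20, and miR-486a-5p with all 22. The folding energies were -43.3 kcal/mol for mir-451a, -28.6 kcal/mol for mir-144, -80.3 kcal/mol for mir-486a and -63.8 kcal/mol for mir-486b.

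**Figure D1:**
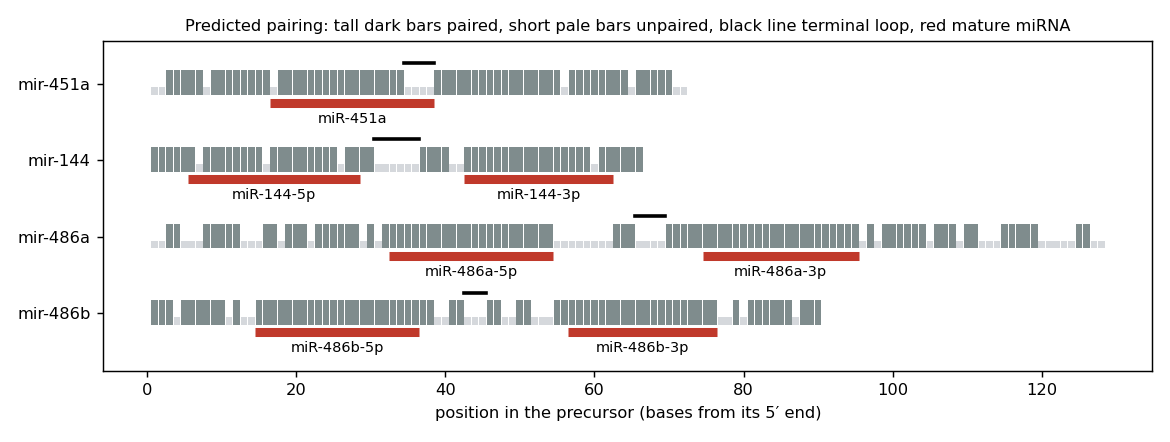
Predicted pairing along the 4 precursors (x axis, position in bases from the 5′ end). Tall dark bars are paired bases, short pale bars unpaired bases, the black line is the terminal loop and the red line a mature miRNA. Only the red line of miR-451a runs under the terminal loop, over its 4 bases.

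The libraries held between 10119758 and 11457656 reads on miRNAs. Levels are given as CPM, reads per 1000000 reads on miRNAs after TMM scaling, with factors from 0.914 to 1.19, the highest in LPS replicate 2. The neuronal miRNAs that define brain tissue were abundant, and miR-124-3p averaged 66032 CPM over the 9 libraries. No miRNA passed the call rule (a log2 fold change of 1 or more in size with a Benjamini-Hochberg adjusted p of 0.05 or less by edgeR's quasi-likelihood test) between LPS and saline, which is 0.0% of the 628 tested. None passed between LPS + GAS and LPS, 0.0%, and 1 miRNA that is not a member passed between LPS + GAS and saline, 0.159%. At an unadjusted p under 0.05, edgeR counted 15, 23 and 21 miRNAs in these comparisons. DESeq2 called 1, 0 and 1 miRNAs, and limma-voom 0, 0 and 1.

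miR-451a was the most abundant member by far. It ranked 42 of the 1448 rows by mean level, at 3647 CPM, and took 97.1% to 98.5% of the reads of the 4 distinct member sequences in each library. Together these sequences held from 0.190% of the reads in saline replicate 3 to 0.610% in LPS + GAS replicate 3. Since the hippocampus is a bulk tissue here, fewer cells of a type and less RNA per cell cannot be told apart.

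miR-451a, which represses 14-3-3ζ and supports red cell maturation, was read 40522, 47243 and 19502 times in the saline libraries. The LPS libraries held 22074, 25222 and 31548 reads, and the LPS + GAS libraries 47427, 48110 and 62796. In scaled levels these were 3871, 4178 and 1966 CPM in saline, 2197, 2095 and 3173 CPM in LPS, and 4427, 4866 and 6049 CPM in LPS + GAS. Saline replicate 3 was the lowest of all 9 libraries, and the 3 LPS + GAS libraries were the 3 highest. The mean was 3338 ± 1199 CPM in saline, 2488 ± 595 CPM in LPS and 5114 ± 839 CPM in LPS + GAS (SD, n = 3 each).

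miR-144-3p, the main arm of its hairpin and a repressor of the antioxidant factor NRF2 in red cells, had 246, 415 and 179 reads in saline. It had 176, 166 and 341 reads in LPS and 490, 317 and 764 reads in LPS + GAS. The mean level was 26.1 ± 9.59 CPM in saline, 21.9 ± 10.9 CPM in LPS and 50.5 ± 21.2 CPM in LPS + GAS. As for miR-451a, LPS + GAS replicate 3 was the highest library, at 73.6 CPM. LPS + GAS replicate 2, at 32.1 CPM, was below both LPS replicate 3 at 34.3 CPM and saline replicate 2 at 36.7 CPM, so the groups overlapped.

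miR-144-5p, the minor arm, was near the limit of counting. It had 22, 34 and 8 reads in saline, 17, 14 and 16 in LPS and 37, 15 and 43 in LPS + GAS. The mean level was 1.97 ± 1.11 CPM in saline, 1.49 ± 0.285 CPM in LPS and 3.04 ± 1.36 CPM in LPS + GAS. LPS + GAS replicates 1 and 3 were the 2 highest of the 9 libraries, and LPS + GAS replicate 2 was the third lowest.

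miR-486a-5p, a repressor of FOXO1, had 453, 558 and 399 reads in saline, 316, 475 and 321 in LPS and 700, 390 and 493 in LPS + GAS. The row of miR-486b-5p held the same reads in all 9 libraries, so 1 set of reads is listed under both names and was not treated as 2 measurements. All 12 sequences that the table lists in more than 1 row were handled in this way by the authors, across 27 rows. The mean level of miR-486a-5p was 44.3 ± 4.65 CPM in saline, 34.4 ± 4.40 CPM in LPS and 50.8 ± 13.2 CPM in LPS + GAS. Its highest library was LPS + GAS replicate 1 at 65.3 CPM, and its lowest LPS replicate 1 at 31.5 CPM.

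**Figure D2:**
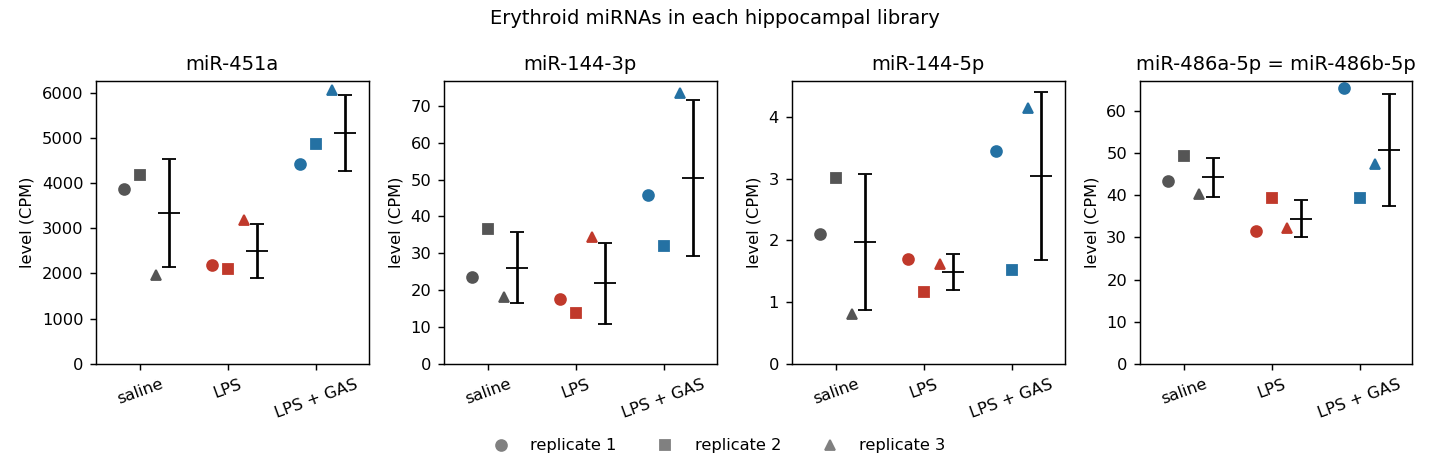
Level of each member in every library (y axis, CPM on a linear scale from 0), by group, with 1 marker shape per replicate number and the mean ± SD of 3 libraries in black. For miR-451a all LPS + GAS libraries, from 4427 CPM, lie above all LPS libraries, up to 3173 CPM, and for the other members the LPS + GAS and LPS libraries overlap.

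The members differed in how far libraries of the same group lay apart. The within-group SD of log2(CPM + 1) was 0.58 for miR-144-3p, 0.47 for miR-144-5p, 0.42 for miR-451a and 0.25 for miR-486a-5p, against a median of 0.28 over the 628 tested rows. It was larger than that of 90.1%, 84.2%, 79.6% and 37.3% of the tested rows, in the same order. Adding 1 before the log shrinks the spread of rows near 1 CPM. The SD of miR-144-5p, at 0.806 to 4.14 CPM, is therefore too low to be ranked against those of the more abundant members. The highest library exceeded the lowest 5.34-fold for miR-144-3p, 5.14-fold for miR-144-5p, 3.08-fold for miR-451a and 2.08-fold for miR-486a-5p.

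The comparison of LPS with saline asked whether the inflammatory stimulus changed the levels. The 4 distinct sequences had log2 fold changes between -0.42 and -0.26, beside a median of -0.04 over all tested rows, and 0 of the 5 members passed the call rule, where the background was 0.0%. miR-451a differed by -0.42 (SE 0.29, edgeR adjusted p = 0.992) and miR-144-3p by -0.26 (SE 0.42, edgeR adjusted p = 0.992), both within the spread of the libraries. That of miR-451a ran from -0.69 without saline replicate 3 to -0.18 without saline replicate 2. miR-144-5p differed by -0.42 (SE 0.50). The sign for miR-144-3p and miR-144-5p rested on single libraries. Without saline replicate 2 the values were 0.12 and 0.07, and without LPS replicate 2 that of miR-144-3p was 0.02.

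miR-486a-5p was 39.5 CPM or less in the LPS libraries and 40.2 CPM or more in the saline libraries, so these groups did not overlap with TMM scaling. The same held in this direction for 1.91% of the tested rows. The log2 difference was -0.36 (SE 0.22, edgeR adjusted p = 0.992). Scaled by library totals alone, LPS replicate 2 at 46.9 CPM exceeded saline replicate 3 at 37.8 CPM, and the groups overlapped.

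The comparison of LPS + GAS with LPS asked whether gastrodin changed the levels in LPS-treated mice. All 4 distinct sequences had positive fold changes, beside 50.6% of all tested rows and a median of 0.003. miR-451a and both arms of mir-144 come from a shared primary transcript, so their signs are not separate observations. Of the 5 members, 0 passed the call rule (background 0.0%). miR-451a had a log2 fold change of 1.04 (SE 0.29, edgeR adjusted p = 0.903), a fold of 2.06, and ranked 2 of 628 by unadjusted p. The lowest LPS + GAS library exceeded the highest LPS library with TMM scaling and also with library totals alone, at 4429 against 3087 CPM. Such groups without overlap, higher in LPS + GAS, were found for 4.14% of all tested rows. The adjusted p of miR-451a ranged from 0.157 with no filter on low counts to 0.996 over the alternatives, and the fold change from 0.84 with the authors' second value, called exp, to 1.25 without LPS replicate 3.

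miR-144-3p had the largest difference among the members, a log2 fold change of 1.21 (SE 0.43, edgeR adjusted p = 0.903). It was 0.85 without LPS + GAS replicate 3 and 1.69 without LPS replicate 3. miR-144-5p differed by 1.04 (SE 0.49, edgeR adjusted p = 0.903), and by 0.77 without LPS + GAS replicate 3. miR-486a-5p had 0.56 (SE 0.22, edgeR adjusted p = 0.903), and 0.34 without LPS + GAS replicate 1. The unadjusted p was under 0.05 for miR-451a, miR-144-3p and miR-486a-5p with its copy, where 2.23% of the tested rows reached it with a higher level in LPS + GAS. A log2 fold change of at least 1 was found for miR-451a, miR-144-3p and miR-144-5p, and for 3.5% of the tested rows.

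The comparison of LPS + GAS with saline shares its libraries with the other comparisons and is not separate evidence. miR-451a had a log2 fold change of 0.62 (SE 0.29, edgeR adjusted p = 0.998), from 0.35 without saline replicate 3 to 0.86 without saline replicate 2. Its LPS + GAS libraries, from 4427 CPM, lay above its saline libraries, up to 4178 CPM, as was found in this direction for 2.55% of the tested rows. With library totals alone the groups overlapped, saline replicate 2 reaching 4537 CPM. miR-144-3p differed by 0.95 (SE 0.43), miR-144-5p by 0.61 (SE 0.47) and miR-486a-5p by 0.20 (SE 0.22), with an edgeR adjusted p of 0.998 for each. Leaving out 1 library gave 0.63 (without LPS + GAS replicate 3) to 1.32 (without saline replicate 2) for miR-144-3p, and 0.25 (without saline replicate 3) to 1.10 (without saline replicate 2) for miR-144-5p. For miR-486a-5p it gave 0.02 (without LPS + GAS replicate 1) to 0.35 (without LPS + GAS replicate 2). None of the 5 members passed the call rule, beside the background of 0.159%, and 0 reached an unadjusted p under 0.05, where 1.43% of the tested rows did so with a higher level in LPS + GAS.

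**Figure D3:**
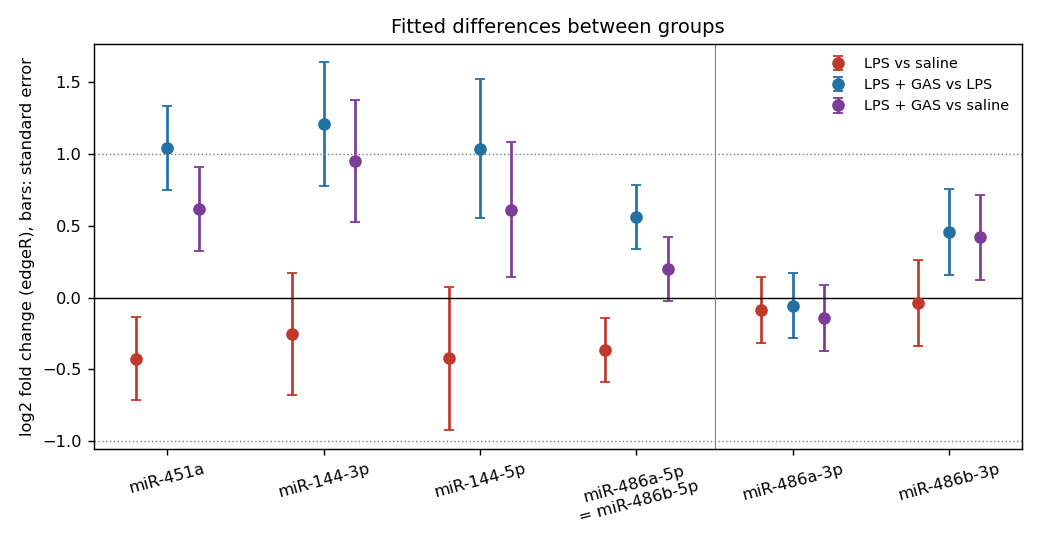
Log2 fold change by edgeR (y axis) with its standard error in the 3 comparisons, for the 4 distinct member sequences and, right of the vertical line, the 3′ arms of miR-486. Dotted lines mark a log2 fold change of 1 and -1. In LPS + GAS vs LPS, miR-451a (1.04), miR-144-3p (1.21) and miR-144-5p (1.04) lie above 1 and miR-486a-5p (0.56) below it, and no point passed the call rule.

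The members of the shared primary transcript kept unequal levels. In every library miR-451a had between 82.2 and 165 reads for each read of miR-144-3p. miR-144-5p made up between 4.28% (95% exact binomial interval 1.86% to 8.26%, saline replicate 3) and 8.81% (5.22% to 13.7%, LPS replicate 1) of the reads of the mir-144 arms. These intervals cover counting error only. Ratios between members within a library were compared by an exact two-sided permutation test, which for 3 against 3 libraries cannot go below p = 0.1. Between LPS + GAS and LPS, the log2 ratio of miR-144-5p to miR-144-3p differed by -0.31 (exact permutation p = 0.5) and that of miR-451a to miR-144-3p by -0.18 (exact permutation p = 0.7). The log2 ratio of miR-486a-5p to miR-451a differed by -0.52 (exact permutation p = 0.3), and the ratio itself ran from 0.785% in LPS + GAS replicate 3 to 2.05% in saline replicate 3. With 1 library left out, the difference of miR-144-5p to miR-144-3p ran from -0.62 (without LPS replicate 3) to -0.10 (without LPS replicate 1), and that of miR-486a-5p to miR-451a from -0.81 (without LPS + GAS replicate 1) to -0.30 (without LPS replicate 2). Over the 12 ratio tests the adjusted p was 0.84 or more.

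The 3′ arms of the mir-486 hairpins were read less often than miR-486a-5p. miR-486a-3p averaged 19.2 ± 2.80 CPM in saline, 18.1 ± 4.50 CPM in LPS and 17.4 ± 1.13 CPM in LPS + GAS, with a log2 fold change of -0.06 (SE 0.23) between LPS + GAS and LPS. miR-486b-3p, which is the first 20 bases of the 21-base miR-486a-3p, averaged 6.28 ± 2.27, 6.12 ± 1.40 and 8.40 ± 1.06 CPM, with a log2 fold change of 0.46 (SE 0.30). The share of miR-486a-3p in the reads of both mir-486a arms was lowest in LPS + GAS replicate 1, at 20.3% (95% exact binomial interval 17.7% to 23.1%), and highest in LPS replicate 2, at 37.1% (33.6% to 40.6%). The intervals cover counting error only, and the reads of the 5′ arm may come from either hairpin. Since 20 bases of miR-486a-3p are the reverse complement of miR-486b-5p, the arms of both hairpins are near mirror copies, and a single base at the end of a read separates the 3′ rows.

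Over the 9 libraries, miR-451a and miR-144-3p varied together. Pearson's r of log2(CPM + 1) was 0.895 (exact permutation p = 0.00116, adjusted over 3 pairs 0.00349) and Spearman's rho 0.817 (exact permutation p = 0.0108, adjusted 0.0323). Without saline replicate 3 and LPS replicate 2, the libraries farthest from the median of miR-451a, r was 0.835, and r of the deviations from the group means was 0.771. For miR-144-5p, r was 0.809 (exact permutation p = 0.0104, adjusted 0.0157), rho 0.733 (exact permutation p = 0.0311, adjusted 0.0467), r without the same libraries 0.626 and r of the deviations 0.711. With library totals alone, the adjusted exact permutation p of its rho was 0.0883. For miR-486a-5p, r was 0.551 (exact permutation p = 0.124), rho 0.45 (exact permutation p = 0.23) and r without these libraries 0.653. Its deviations from the group means had an r of 0.02 with those of miR-451a, and of 0.255 with library totals alone. All members of a pair share the scaling factor of their library. The permutations ran over all 9 libraries without regard to group, so a difference between groups that both miRNAs share enters these p-values. No p-value was computed for the deviations from the group means.

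**Figure D4:**
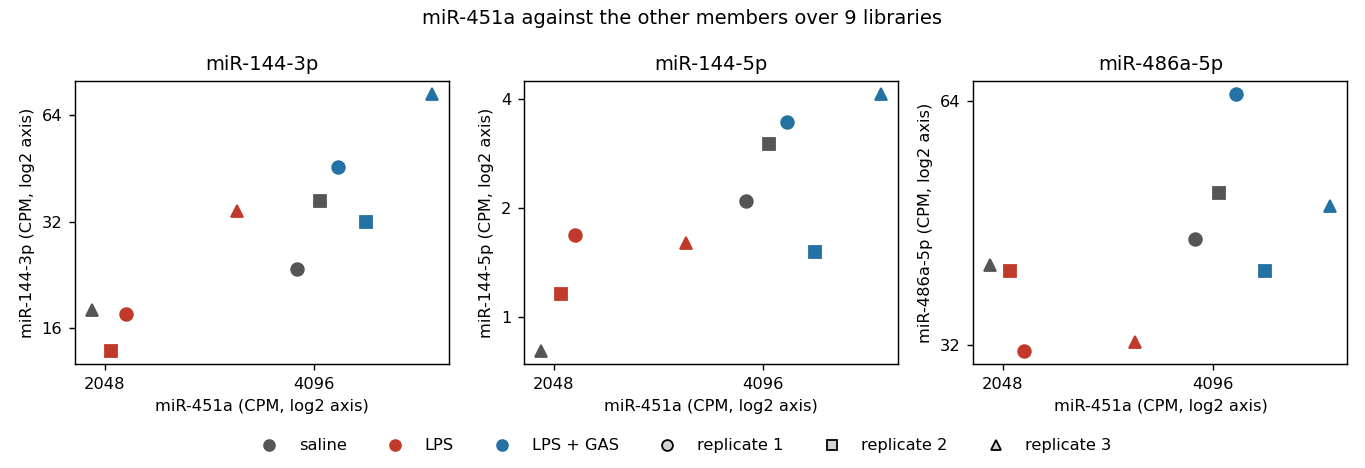
Level of miR-144-3p, miR-144-5p and miR-486a-5p (y axes) against miR-451a (x axis), both in CPM on log2 axes, with 1 point per library, colour for the group and shape for the replicate. miR-144-3p lies closest to a line (r = 0.895), miR-144-5p less so (r = 0.809), and miR-486a-5p is scattered (r = 0.551).

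Among the 623 other tested rows, the median r with miR-451a was -0.04, and 6 rows had an r of at least 0.8. The 5 likest were miR-15b-5p (r = 0.905), miR-3065-5p (0.865), miR-210-3p (0.837), miR-223-3p (0.826) and miR-199a-3p (0.817), as a description over 9 libraries. miR-144-3p ranked 2 of all tested rows by this measure and miR-144-5p ranked 8. miR-486a-5p ranked 60. Between LPS + GAS and LPS, the log2 fold changes of the 5 likest were 0.50 (miR-15b-5p), 0.71 (miR-3065-5p), 0.52 (miR-210-3p), 1.11 (miR-223-3p) and 0.90 (miR-199a-3p). That of miR-451a was 1.04. The 5 were picked by likeness over these same libraries, so a similar fold change is not separate evidence. miR-223-3p is best known from myeloid cells and platelets.

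miRNAs of other blood and tissue cells were described beside the members. Of 10 miRNAs that are abundant in red cells but made by many other cells, 0 passed the call rule in any comparison, and the median log2 fold change was -0.12 for LPS vs saline, 0.23 for LPS + GAS vs LPS and 0.09 for LPS + GAS vs saline. All 10 were positive between LPS + GAS and LPS, from 0.06 to 0.50, below the 1.04 of miR-451a. The most abundant, miR-191-5p, had 0.27 and miR-16-5p, which restrains the cell cycle, had 0.23. The summed level of the list was 20082 to 32587 CPM in LPS and 28986 to 33161 CPM in LPS + GAS.

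Of 6 leukocyte and platelet miRNAs, 0 passed, with medians of 0.02, 0.27 and 0.42 in the same order, and between LPS + GAS and LPS all 6 were positive, from 0.04 for the lymphocyte miRNA miR-150-5p, the most abundant, to 1.11 for miR-223-3p. In 2 of the 6 the LPS + GAS libraries lay above the LPS libraries without overlap, beside 4.14% of the tested rows. These were miR-223-3p and miR-155-5p, the least abundant of the list, at 8.39 and 7.39 CPM over the 9 libraries. Against LPS the edgeR adjusted p was 0.903 for each. miR-155-5p, an miRNA of activated immune cells, was named after its values were seen. Its log2 fold change was 0.83 against LPS and 0.88 against saline. Of 4 miRNAs of endothelium and vessel wall, 0 passed, with medians of -0.03, 0.19 and 0.01. Between LPS + GAS and LPS the values ran from -0.27 for miR-126a-5p to 0.39 for miR-143-3p of smooth muscle, with 0.12 for the endothelial miR-126a-3p, the other arm of the miR-126a-5p hairpin. The list summed to 16408 to 20672 CPM in LPS and 19950 to 21009 CPM in LPS + GAS. Of 6 neuronal miRNAs, 0 passed, with medians of -0.01, -0.03 and 0.04. The medians over the 5 member rows, with the reads of miR-486-5p entered under both names, were -0.36, 1.04 and 0.61.

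The list of the choroid plexus and ependyma, the secretory epithelium and lining of the ventricles that border the hippocampus, had fold changes of the same sign as the members in most cases. Of its 13 miRNAs 0 passed the call rule. The medians were -0.56 for LPS vs saline, 1.39 for LPS + GAS vs LPS and 0.88 for LPS + GAS vs saline. All 13 were positive between LPS + GAS and LPS, over a wide range from 0.16 to 2.26. 1 of the 13 was at 0 in at least 1 library. The most abundant, miR-204-5p, had a log2 fold change of 1.14 (SE 0.60) between LPS + GAS and LPS. Summed, the list was at 9882 to 30057 CPM in saline, 9657 to 22616 CPM in LPS and 12662 to 57322 CPM in LPS + GAS. Its highest library, LPS + GAS replicate 1, was the highest of its group for miR-486a-5p, the middle one for miR-144-3p and miR-144-5p and the lowest for miR-451a. Its lowest LPS + GAS library, replicate 2, was the lowest of its group for miR-144-3p (32.1 CPM), miR-144-5p (1.52 CPM) and miR-486a-5p (39.4 CPM) and the middle one for miR-451a (4866 CPM). The part of choroid plexus tissue in the differences of the members was not tested.

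**Figure D5:**
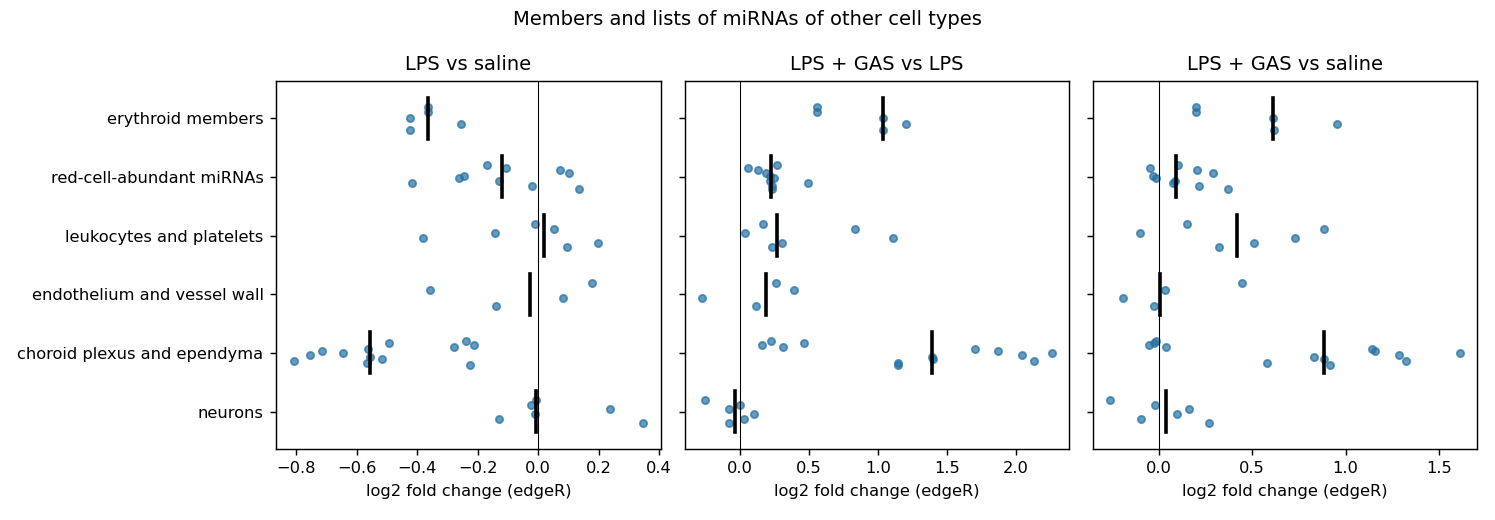
Log2 fold change by edgeR (x axes) of the members and of each miRNA in 5 lists (rows, 1 point per miRNA, black line the median) in the 3 comparisons. Between LPS + GAS and LPS the members (median 1.04 over 5 rows) and the choroid plexus list (median 1.39) stand to the right. The medians are 0.27 for leukocytes and platelets, 0.23 for the red-cell-abundant list, 0.19 for endothelium and vessel wall and -0.03 for neurons. All points of the leukocyte and red-cell-abundant lists are positive there.

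The ratio of miR-451a to miR-23a-3p, a miRNA of many cell types that is scarce in red cells, needs no scaling between libraries. In plasma it is used to detect lysed red cells. Here, in a tissue of many cell types, it is given only as a value per library and not as a measure of lysis. It was 1.82, 2.39 and 1.19 in saline, 1.39, 1.20 and 1.45 in LPS and 2.28, 2.02 and 3.01 in LPS + GAS. The LPS + GAS libraries lay above the LPS libraries without overlap, and saline replicate 2 lay within the range of LPS + GAS. The log2 ratio was 0.84 higher in LPS + GAS than in LPS (exact permutation p = 0.1, the smallest that 3 against 3 allows, adjusted p = 0.84). It was 0.47 higher in LPS + GAS than in saline (exact permutation p = 0.3) and differed by -0.37 between LPS and saline (exact permutation p = 0.4).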

How the data were processed

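Small RNA of hippocampi from 3 groups of 3 libraries was sequenced by a commercial service. The authors deposited a table of 1448 mature miRNAs with whole-number read counts per library, a second value per library named exp, and the mature sequence. The aligner, the counter, the miRBase release and the making of exp were not given in the sources used here, and the submitters' processing notes name the build GRCm38.p6. The exp values are a score that the authors deposited without a stated unit. They equalled 98.9% to 100% of the reads for the members other than miR-451a and 71.9% to 89.0% for miR-451a, and served only as an alternative. Averages and the columns of the authors' own comparisons (log2 fold changes, p-values and q-values) were not used, and 0 per-library columns were left without a sample.

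Counts were filtered (at least 10 reads in 3 libraries), scaled by TMM and fitted in 1 model of the 3 groups with edgeR 4.0.16 (glmQLFit and glmQLFTest, R 4.3.3), with Benjamini-Hochberg adjustment over the 628 tested rows. Rows with an adjusted p of 0.05 or less and a log2 fold change of 1 or more in size were called, the thresholds named in the study's methods. The fit across all miRNAs was tested on simulated data. DESeq2 1.42.0, limma-voom 3.58.1, other scalings and filters, exp values, identical rows counted once, only the groups compared, a replicate block and each library left out were tried. Log2(CPM + 1) was used for spread and correlations, SciPy 1.17.1 for exact tests and intervals, and ViennaRNA 2.7.2 for folds. Positions are from GENCODE M21 and RefSeq. The members and lists were chosen with earlier results of these data known. Named were the members, the other arms of their hairpins, rows sharing a seed, the 5 likest miRNAs and miR-23a-3p. Up to 3 miRNAs of each list were named by mean level. miR-155-5p was named outside this rule, after its values were seen.

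Replicate numbers come from the titles, which do not say that they mark a shared animal, litter or day. Deviations of same-numbered libraries correlated at 0.296, 0.329 and 0.370 between LPS + GAS and saline, at 0.317, 0.209 and -0.284 between LPS and saline, and at -0.109, 0.0466 and -0.274 between LPS + GAS and LPS. Only between LPS + GAS and saline did every replicate number exceed the limit of 0.1 used here. This does not establish a pairing, and the main fit and the ratio tests treated the libraries as unpaired.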

Additional observations from a re-analysis of the deposited data

How the results depend on the processing

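Of 225 alternative fold changes of the members, 3 changed sign, and none of the 5 members was called under any alternative. These were in LPS vs saline, where leaving out 1 library gave -0.74 to 0.12 for miR-144-3p and -0.79 to 0.065 for miR-144-5p, miR-144-3p being 0.12 without saline replicate 2 and 0.02 without LPS replicate 2. In the fit with the replicate block, miR-451a had 0.61 between LPS + GAS and saline, and the block changed no call of a member in 12 values. Calls over all miRNAs in LPS vs saline were 0, against 2 with no filter on low counts, 1 with DESeq2 and 0 to 1 with 1 library left out (1 without LPS replicate 2 or LPS + GAS replicate 3). In LPS + GAS vs LPS they were 0 to 1 with 1 library left out (1 without LPS replicate 2). The cause was not tested.

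Of 84 alternative log2 ratios 11 changed sign. In LPS vs saline, with 1 library left out, miR-144-5p to miR-144-3p ran from -0.24 to 0.39, miR-451a to miR-144-3p from -0.24 to 0.12 and miR-486a-5p to miR-451a from -0.21 to 0.28, the last being -0.060 with exp values. In LPS + GAS vs LPS, miR-451a to miR-144-3p ran from -0.44 to 0.0047. Library totals without TMM factors, an alternative chosen after seeing the data, left 0 in place of 1 member sequence without overlap for each comparison with saline, and 1 in LPS + GAS vs LPS. miR-144-5p did not reach the filter of 50 reads and has no value there. With 8 to 43 reads per library it is the member that depth limits most.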

Other observations

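miR-451a, by far the most abundant member, was also the one for which both deposited values differed most. A trait of miR-451a and an effect of abundance cannot be told apart among these members. Its exp value was 71.9% of its reads in the library where the share was lowest and 89.0% where it was highest, whereas miR-144-5p had exp values equal to its reads in all 9 libraries. With exp values, the log2 fold change of miR-451a between LPS + GAS and LPS was 0.84, against 1.04 with reads. The library with the most miR-451a reads, LPS + GAS replicate 3, held 62796 reads and an exp value of 45171, and the library with the fewest, saline replicate 3, held 19502 reads and an exp value of 17366.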
